A study of Homo sapiens with 24 samples.

Results

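Plasminogen activation in SK-MES-1 cells was described through 5 genes chosen by their function: the activators PLAU and PLAT, the receptor PLAUR, and the inhibitors SERPINE2 and SERPINB2. They are 5 of the 34834 genes to which the deposited transcripts could be assigned. The rule that defines the set uses no measured value, although it was written with earlier results of these data known. SK-MES-1 is an established line of human lung squamous carcinoma cells, and all libraries share this line, low passage and 3 h of growth factor depletion before time zero. The cells then received 2 ng/ml TGFβ1 or were left untreated, and total RNA was collected at 0, 8, 24 and 48 h in 3 biological replicates of each arm, giving 24 libraries in 8 groups. The question was how the mRNA of each gene behaved over time with and without TGFβ.

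Plasminogen is a circulating pro-enzyme that is cut to plasmin, a protease that digests fibrin, activates matrix metalloproteinases and degrades extracellular matrix. The urokinase-type activator (PLAU) works mainly at the cell surface, bound to its receptor uPAR (PLAUR), and is tied to cell invasion in many carcinomas, whereas the tissue-type activator (PLAT) is best known for dissolving clots on fibrin. Both activators are blocked by serpins, inhibitors that the protease cuts and is then trapped by. SERPINE2 (protease nexin-1) is secreted and also blocks thrombin, and SERPINB2 (PAI-2) is mostly kept inside the cell and is known for strong induction by inflammatory and stress signals.

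Library depth lay between 46613589 and 77964234 estimated counts. Levels are given as TPM (a transcript's share of all transcripts, corrected for length and put on a common scale), summed over the transcripts of a gene. The known early TGFβ targets SMAD7, SKIL and PMEPA1 were higher in the treated arm by 2.27, 2.86 and 4.11 on the log2 scale (mean of 8, 24 and 48 h). Of 7 squamous or basal markers, KRT5, KRT6A, KRT14 and DSG3 stayed at or below 0.102 TPM in every library. TP63 lay at 7.69 to 37.5 TPM and SOX2 at 0.37 to 8.17 TPM. KRT17, another basal keratin, lay at 0.29 to 71.4 TPM with a median of 3.20 TPM over the libraries. It was higher in treated cells by 4.27 on the log2 scale (mean of 8, 24 and 48 h). Among the epithelial markers EPCAM lay at 21.6 to 37.0 TPM and CDH1 at 0.969 to 5.74 TPM. The other epithelial markers, KRT8 and KRT18, lay at 375 to 963 TPM and 406 to 989 TPM. Of the leukocyte markers CD3E was at 0 in every library, PTPRC lay at 1.26 to 2.10 TPM and CD68 at 7.64 to 40.2 TPM. By the F-test over 8, 24 and 48 h, 3 of 3 fibroblast markers and 1 of 2 tested leukocyte and 1 of 2 tested alveolar markers were lower in treated cells. The 2 of 2 tested endothelial markers were higher. Of all tested genes, 21.5% were lower and 21% higher by this test. VWF stayed at or below 0.342 TPM and NKX2-1 at or below 1.15 TPM. PECAM1 lay at 0.582 to 4.14 TPM, DCN at 0.332 to 13.4 TPM, LUM at 3.03 to 24.1 TPM and PDGFRA at 3.17 to 11.3 TPM. The part of these markers in the results was not tested. Replicate 2 of the TGFβ arm at 0 h and at 24 h stood farthest from the other libraries of its group, with deviations of 0.319 and 0.308 (root mean square over genes, log2) against 0.211 to 0.278 in the other 22 libraries. The deposited tables carry library codes of unstated meaning that differ between the arms and change between 8 h and 24 h, so at 24 and 48 h the code and the treatment cannot be told apart. Changes within an arm from 0 h to 24 or 48 h also span the change of codes, whose part was not tested. At 8 h an offset between codes is removed by taking the arm difference less that at 0 h, which is given for each gene.

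Promoter sequence was available for 4 of the 5 genes from RefSeq (GRCh38.p14). For PLAU, PLAUR and SERPINB2 a RefSeq start coincides with the start of the most abundant transcript, and the 250 bases before that start are shown because these genes represent the strongest rise, a smaller rise and the fall described in the following paragraphs. Capitals mark matches to any of 4 motifs on either strand. The AP-1 motif was searched as TGANTCA, the SMAD-binding element was searched as CAGACA, the GC box was searched as GGGCGG, and the TATA box was searched as TATAAA; no match overlapped another.
PLAU, chr10:73910882-73911131, plus strand: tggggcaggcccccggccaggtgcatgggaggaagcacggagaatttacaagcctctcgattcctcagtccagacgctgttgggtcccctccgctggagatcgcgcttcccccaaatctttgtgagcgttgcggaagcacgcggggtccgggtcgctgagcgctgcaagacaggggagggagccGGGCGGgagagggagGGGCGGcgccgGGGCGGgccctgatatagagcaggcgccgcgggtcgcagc
PLAUR, chr19:43670170-43670419, minus strand: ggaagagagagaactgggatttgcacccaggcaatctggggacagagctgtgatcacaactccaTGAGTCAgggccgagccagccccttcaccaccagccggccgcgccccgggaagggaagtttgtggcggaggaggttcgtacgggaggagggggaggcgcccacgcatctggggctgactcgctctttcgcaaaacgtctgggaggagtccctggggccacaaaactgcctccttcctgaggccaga
SERPINB2, chr18:63887455-63887704, plus strand: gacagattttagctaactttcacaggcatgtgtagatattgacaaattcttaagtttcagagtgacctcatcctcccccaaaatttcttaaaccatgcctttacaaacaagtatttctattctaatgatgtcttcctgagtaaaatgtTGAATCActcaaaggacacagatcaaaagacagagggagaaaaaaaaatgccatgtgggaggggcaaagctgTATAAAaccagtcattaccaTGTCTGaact

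The PLAU window shown holds 3 GC boxes (the window of a further RefSeq start of PLAU, 522 bases away and not shown, holds a SMAD match after that start), the PLAUR window an AP-1 match, and the SERPINB2 window an AP-1 match, a SMAD match and a TATA box whose letters begin 30 bases before the start. A further SMAD match of SERPINB2 lies after its start, outside the bases shown. Among 34796 promoters of the same length, 7.73% held the AP-1 letters, 16.9% the SMAD letters, 44.9% the GC box and 11.6% the TATA box, counted over 250 bases before and 50 after the start. Both RefSeq starts of SERPINE2 lie 646 bases or more from the start of its main transcripts, so its windows are not shown. A match is a run of letters only, and binding was not measured.

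At 0 h none of the 5 genes differed between the arms (limma voom, Benjamini-Hochberg adjusted p = 1 for each), and the libraries of the arms overlapped for every one of them. At 8, 24 and 48 h all 5 genes passed an adjusted p of 0.01 in limma voom, where 4 were higher (PLAU, PLAT, PLAUR and SERPINE2) and SERPINB2 was lower in the treated arm. At 0 h 0% of the 17453 tested genes passed (800 had an unadjusted p below 0.05). The share of all genes that passed was 16.4% for 8 h (9.12% higher and 7.26% lower), 29.3% for 24 h (15.4% higher and 13.8% lower) and 32.6% for 48 h (16.1% higher and 16.4% lower). The libraries of the arms did not overlap in TPM for any of the 5 genes at 8, 24 and 48 h, in the same direction each time, which held for 18.8% of all tested genes (at 0, 8, 24 and 48 h singly, 6.99%, 47.4%, 40.3% and 55.1% of genes had no overlap). In the overall F-test of the 3 arm differences, which 42.5% of all genes passed, the mean log2 difference was 2.48 for PLAU, 0.94 for SERPINE2, 0.71 for PLAT, 0.58 for PLAUR and -0.82 for SERPINB2. An exact permutation test of TPM, exchanging labels within each time point, gave a two-sided p of 0.00025 for each gene, the smallest that its 8000 relabellings allow. That p was fixed by the lack of overlap in the same direction at 8, 24 and 48 h. It adds nothing to this separation, which 18.8% of all tested genes share. After subtraction of the 0 h difference 4, 4 and 5 of the 5 genes passed at 8, 24 and 48 h, against 7.88%, 16.6% and 20.7% of all genes. Within the untreated arm 3, 4 and 4 of the 5 differed from 0 h at 8, 24 and 48 h, against 25.9%, 47.5% and 55.1% of all genes, and within the TGFβ arm 3, 4 and 5 did, against 33.8%, 47% and 57.9%. A change of the arm difference between times was called for 2 of the 5 genes from 8 h to 24 h (6.69% of all genes), for 1 from 24 h to 48 h (9.11%) and for 3 from 8 h to 48 h (14%). In these bulk samples, fewer cells with a transcript and less of it per cell cannot be told apart.

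**Figure D1:**
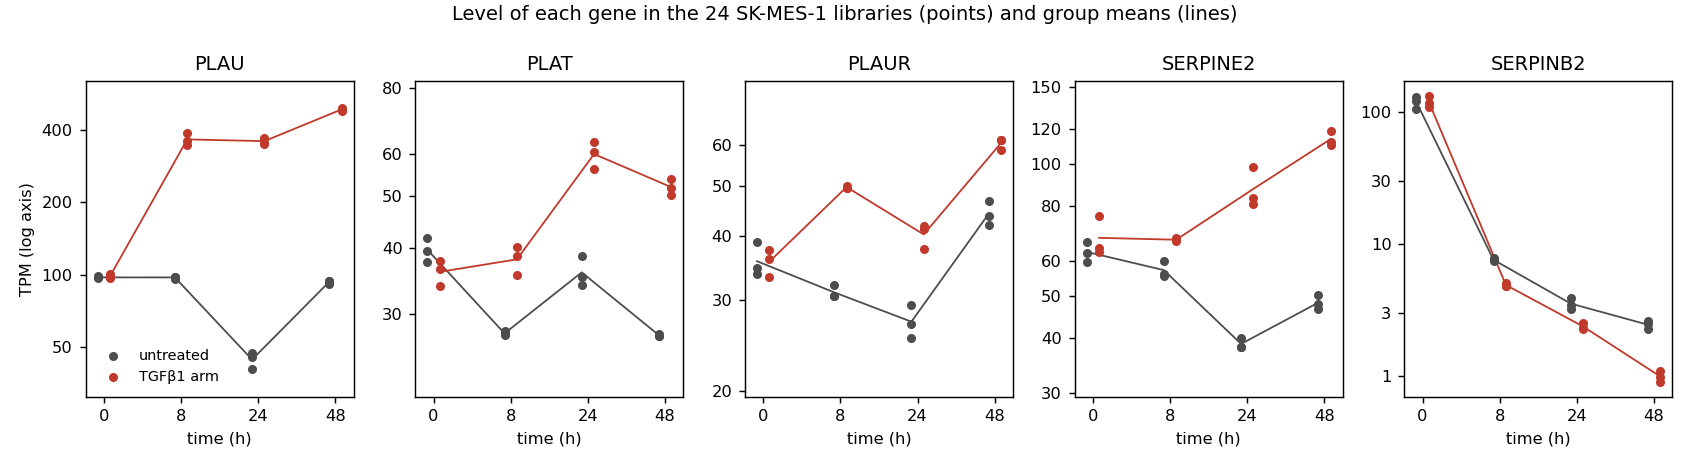
TPM (log axis, each panel with its own range) of the 5 genes against time (h, time points evenly spaced) in untreated libraries (grey) and libraries of the TGFβ1 arm (red). Points are single libraries and lines join the means of 3; the arms coincide at 0 h and separate at 8, 24 and 48 h in every panel, with PLAU reaching 489 TPM and SERPINB2 falling to 0.992 TPM in the TGFβ1 arm at 48 h.

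PLAU, the gene of the urokinase-type activator (chr10:73909177-73917496, plus strand), showed the largest difference of the 5 genes. In untreated cells its level was 98.5, 97.4 and 96.5 TPM at 0 h, 96.1, 98.1 and 98.2 TPM at 8 h, 45.4, 40.3 and 47.2 TPM at 24 h, and 91.8, 94.2 and 94.3 TPM at 48 h. In the TGFβ arm it was 98.3, 97.2 and 100.4 TPM at 0 h, 391, 360.1 and 348 TPM at 8 h, 357, 372 and 352 TPM at 24 h, and 491, 481 and 493 TPM at 48 h. The treated libraries after 0 h all lay above every untreated library, and within the untreated arm the 24 h libraries stood alone at the bottom.

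Treated PLAU was 3.76 times the untreated mean TPM after 8 h, 8.13 times after 24 h and 5.23 times after 48 h. The fitted log2 difference was 1.97 (SE 0.05, limma voom adjusted p = 2.4e-17) at 8 h, 3.06 (SE 0.05, adjusted p = 2.3e-20) at 24 h and 2.41 (SE 0.05, adjusted p = 3.9e-19) at 48 h, and the 8 h value less that at 0 h was 1.94 (adjusted p = 6.4e-14). By the F-test p, PLAU ranked 14 of 17453 genes. The larger difference at 24 h came with a lower untreated level: untreated PLAU fell by 1.19 on the log2 scale from 0 h to 24 h (adjusted p = 2.3e-13), whereas treated PLAU stood 1.89, 1.84 and 2.22 above its 0 h level at 8, 24 and 48 h. The treated libraries of 8 h and 24 h overlapped, and those of 48 h lay above both. Its transcript PLAU-201 carried 89.9 to 93.2% of the gene's TPM in every group mean, so the rise took place in the same transcript that untreated cells use. The lncRNA C10orf55 overlaps PLAU on the opposite strand and reached at most 1.42 TPM.

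PLAT encodes the tissue-type activator and lies on chromosome 8. In untreated cells its level was 39.5, 37.7 and 41.8 TPM at 0 h, 27.4, 27.5 and 27.9 TPM at 8 h, 38.6, 34.1 and 35.2 TPM at 24 h, and 27.2, 27.3 and 27.6 TPM at 48 h. In the TGFβ arm it was 36.5, 33.8 and 37.8 TPM at 0 h, 40.1, 35.5 and 38.5 TPM at 8 h, 63.4, 56.2 and 60.6 TPM at 24 h, and 51.9, 50.2 and 54.0 TPM at 48 h. Both arms were higher at 24 h than at 8 h or 48 h, with the treated libraries above the untreated ones at each time after 0 h.

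The PLAT arm difference was 0.51 (SE 0.07, limma voom adjusted p = 5.6e-06) on the log2 scale at 8 h, 0.77 (SE 0.07, adjusted p = 3.6e-09) at 24 h and 0.86 (SE 0.07, adjusted p = 8.5e-10) at 48 h, or 1.38, 1.67 and 1.90 times the untreated mean TPM. At 8 h the difference came with a fall in untreated cells: untreated PLAT fell by 0.58 from 0 h (adjusted p = 7.9e-07), and the treated value changed by -0.00075 (95% interval -0.14 to 0.14). The 8 h difference less that at 0 h was 0.58 (adjusted p = 0.00015). At 24 h PLAT was 0.66 above its 0 h level in the TGFβ arm (adjusted p = 2.3e-08). The arm difference grew by 0.36 from 8 h to 48 h (adjusted p = 0.009), a call that held in only 7 of the 24 fits with a library left out, whose values ran from 0.33 to 0.38.

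PLAUR (chr19:43646095-43670547, minus strand), the gene of the receptor uPAR, moved less than its ligand. In untreated cells its level was 38.8, 33.7 and 34.6 TPM at 0 h, 30.6, 32.1 and 30.5 TPM at 8 h, 27.0, 25.3 and 29.4 TPM at 24 h, and 46.7, 42.0 and 43.6 TPM at 48 h. In the TGFβ arm it was 37.6, 33.2 and 36.1 TPM at 0 h, 50.03, 49.6 and 49.6 TPM at 8 h, 41.3, 37.6 and 41.8 TPM at 24 h, and 61.4, 61.4 and 58.8 TPM at 48 h. In both arms the level was lower at 24 h than at 8 h and was highest at 48 h, where the untreated libraries lay above the treated libraries of 24 h.

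The PLAUR arm difference was 0.71 (SE 0.07, limma voom adjusted p = 7.7e-08) at 8 h, 0.61 (SE 0.07, adjusted p = 7.2e-07) at 24 h and 0.41 (SE 0.07, adjusted p = 4.3e-05) at 48 h, on the log2 scale. Less the difference at 0 h, the 8 h value was 0.69 (adjusted p = 4.5e-05) and the 48 h value 0.39 (adjusted p = 0.0055), the latter being lost in 8 of the 24 fits with a library left out. The decline of -0.30 from 8 h to 48 h was not called (95% interval -0.51 to -0.10, adjusted p = 0.032). Untreated PLAUR fell by 0.45 by 24 h (adjusted p = 2.9e-05) and stood 0.27 above its 0 h level at 48 h (adjusted p = 0.0022); without untreated replicate 2 of 0 h or replicate 1 of 48 h the latter gave adjusted p-values of 0.017 and 0.013.

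PLAUR was the gene of the set with the most mixed transcripts. PLAUR-203, with 335 codons, is annotated as 7 exons, and PLAUR-202, with 281 codons, shares exons 2 to 6 with it but ends in a different exon of 454 bases in place of the last exon of PLAUR-203. As background, the last coding part of the membrane-bound receptor carries the signal for its lipid anchor. The PLAUR-202 share of PLAUR TPM was 32.6% ± 4.03 (SD, n = 3) at 0 h in untreated cells and 33.2% ± 1.76 in the TGFβ arm, and it stood at 18.8% ± 1.12 and 15.6% ± 0.947 at 48 h. At 8 h it was 26.8% ± 1.99 in untreated and 20.4% ± 1.82 in treated cells. PLAUR-203 went from 44.3% ± 4.92 to 57.6% ± 4.07 in untreated cells and from 43.5% ± 2.98 to 54.3% ± 5.07 in the TGFβ arm. The decline of PLAUR-202 was therefore seen in both arms, and these shares were not tested. PLAUR-213, which starts within the gene and lacks the final exon, had shares with SDs up to 7.91 percentage points in a group.

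**Figure D2:**
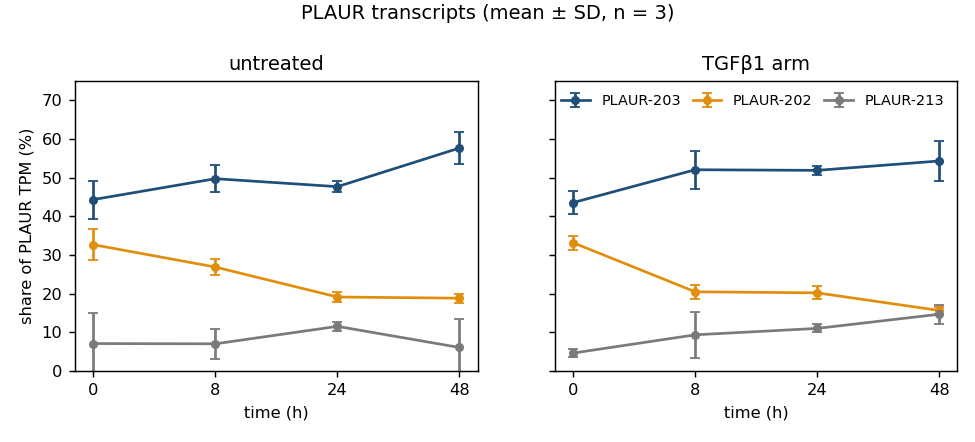
Share of PLAUR TPM (%) taken by its 3 main transcripts against time (h, evenly spaced) in untreated cells (left) and the TGFβ1 arm (right); points are means and bars SDs of 3 libraries. PLAUR-202 falls from 32.6% to 18.8% in untreated cells and from 33.2% to 15.6% in the TGFβ1 arm; bars that would pass below 0 end at the axis.

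SERPINE2 (chr2:223975045-224039318, minus strand), the gene of protease nexin-1, had its larger arm differences at 24 and 48 h. In untreated cells its level was 62.7, 66.5 and 59.8 TPM at 0 h, 55.5, 60.1 and 56.1 TPM at 8 h, 38.2, 39.99 and 38.3 TPM at 24 h, and 46.7, 47.9 and 50.1 TPM at 48 h. In the TGFβ arm it was 63.1, 76.1 and 64.2 TPM at 0 h, 67.7, 66.9 and 66.8 TPM at 8 h, 81.1, 98.4 and 83.6 TPM at 24 h, and 110.6, 112 and 119 TPM at 48 h. The high libraries at 0 h and 24 h of the TGFβ arm are its replicates 2, the same libraries that stood farthest from their groups.

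The SERPINE2 arm difference was 0.31 (SE 0.05, limma voom adjusted p = 7.5e-05) at 8 h, 1.21 (SE 0.05, adjusted p = 5e-14) at 24 h and 1.29 (SE 0.05, adjusted p = 9.3e-15) at 48 h on the log2 scale. Without replicate 2 of the TGFβ arm at 24 h the 24 h value was 1.15 (adjusted p = 1.1e-13). At 8 h the call depended on how it was made: less the difference at 0 h it was 0.22 (95% interval 0.07 to 0.37, adjusted p = 0.052), and limma on log2(TPM + 1) gave 0.23 (adjusted p = 0.023). The difference grew by 0.90 from 8 h to 24 h (adjusted p = 2.7e-08). Measured from 0 h, untreated SERPINE2 stood at -0.24 at 8 h and at -0.77 at 24 h (adjusted p = 0.00097 and 7.8e-11), and treated SERPINE2 at -0.02 and 0.35 (adjusted p = 0.8 and 4.5e-06). From 24 h to 48 h the difference changed by 0.08 (95% interval -0.07 to 0.23). SERPINE2-202 carried 75.3 to 79.1% of the TPM and SERPINE2-201, with 398 codons in place of 397, 14.02 to 19.03%.

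SERPINB2 (chr18:63871692-63903888, plus strand), the gene of PAI-2, collapsed over time in both arms. At 0 h it was 121, 131 and 105 TPM in untreated libraries and 118, 132 and 109.6 TPM in the TGFβ arm. Untreated libraries then showed 7.82, 7.51 and 7.45 TPM at 8 h, 3.24, 3.94 and 3.45 TPM at 24 h, and 2.46, 2.27 and 2.62 TPM at 48 h. Treated libraries showed 4.82, 4.85 and 5.03 TPM at 8 h, 2.28, 2.33 and 2.52 TPM at 24 h, and 0.983, 0.905 and 1.09 TPM at 48 h, where 42 to 56 estimated counts remained in a library. All libraries after 0 h lay far below those of 0 h, and at each of these times the treated libraries lay below the untreated ones.

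From 0 h, SERPINB2 fell by 4.02, 5.16 and 5.71 on the log2 scale at 8, 24 and 48 h in untreated cells (limma voom adjusted p = 2.9e-18, 9e-19 and 2.7e-19). In the TGFβ arm the changes were -4.64, -5.73 and -7.08 (adjusted p = 4.5e-19, 4.1e-19 and 2.6e-18). The fall to 48 h in the TGFβ arm ranked 1 from the lowest of all 17453 genes, and that in untreated cells ranked 3. The arm difference on top of this fall was -0.58 (SE 0.11, adjusted p = 0.0003) at 8 h, -0.54 (SE 0.14, adjusted p = 0.0053) at 24 h and -1.33 (SE 0.20, adjusted p = 1.4e-05) at 48 h, and the 8 h value less that at 0 h was -0.62 (adjusted p = 0.0016). The 24 h call is the weakest of the 5 genes: it was lost without untreated replicate 2 of 24 h (-0.47, adjusted p = 0.026) or without replicate 1, 2 or 3 of the TGFβ arm at 24 h (-0.51, -0.53 and -0.57, adjusted p = 0.023, 0.018 and 0.013), and scaling to the study's qRT-PCR reference genes gave -0.19 (adjusted p = 0.28). The further growth from 24 h to 48 h of -0.79 was not called (95% interval -1.31 to -0.27, adjusted p = 0.034).

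**Figure D3:**
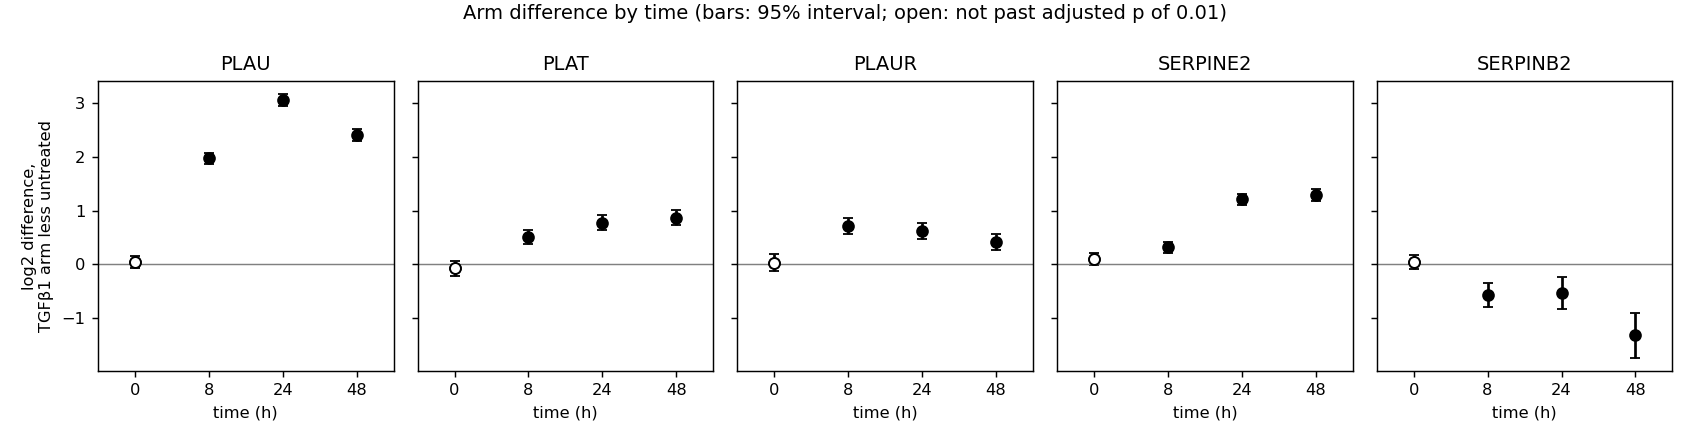
Fitted log2 difference between the TGFβ1 arm and untreated cells (limma voom) at 0, 8, 24 and 48 h (evenly spaced) for each gene; bars are 95% intervals and open points did not pass an adjusted p of 0.01. All 0 h points lie near 0, PLAU peaks at 3.06 at 24 h, and SERPINB2 alone lies below 0 after 0 h.

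**Figure D4:**
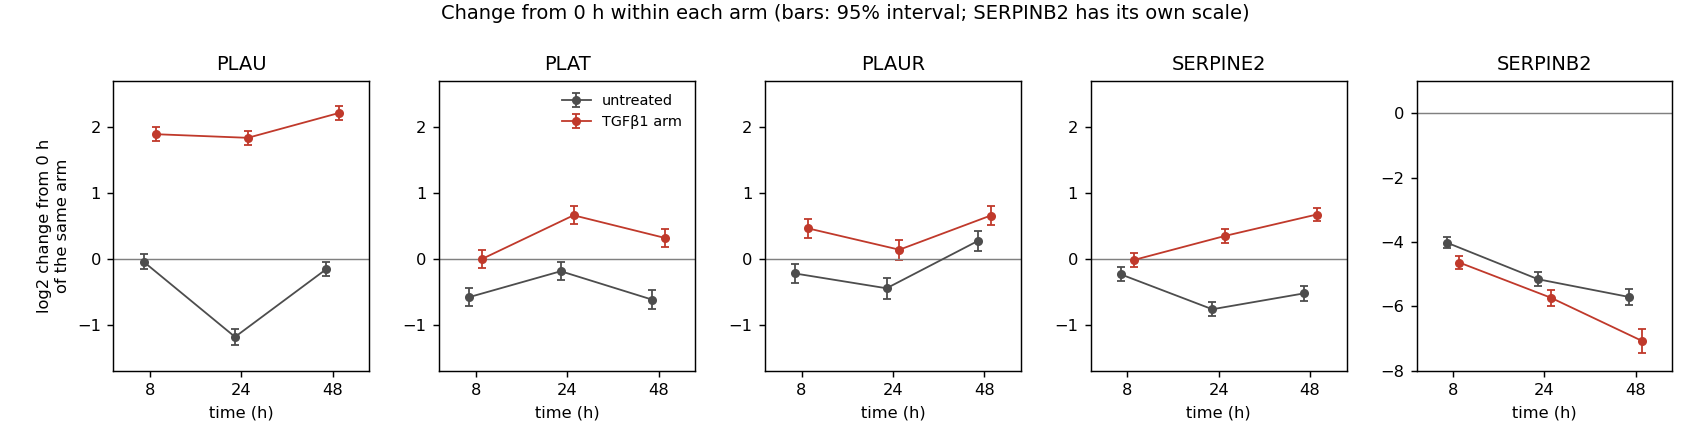
Log2 change from 0 h of the same arm at 8, 24 and 48 h (evenly spaced) in untreated cells (grey) and the TGFβ1 arm (red) with 95% intervals; SERPINB2 has a scale of its own. Untreated PLAU dips to -1.19 at 24 h while the treated arm stays between 1.84 and 2.22, and SERPINB2 falls to -5.71 and -7.08 at 48 h.

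With these levels the makeup of the set shifted. At 0 h SERPINB2 was its most abundant member, with 119 ± 12.8 TPM (SD, n = 3) in untreated cells, and at 48 h it was the least abundant in both arms. The ratio of SERPINE2 to SERPINB2 TPM was 0.531 ± 0.0319 in untreated cells at 0 h, 19.7 ± 1.17 in untreated cells at 48 h and 115 ± 7.80 in treated cells at 48 h. The summed TPM of PLAU and PLAT over that of SERPINE2 and SERPINB2 was 0.758 ± 0.0766 in untreated and 0.723 ± 0.0853 in TGFβ-arm libraries at 0 h. It was 1.93 ± 0.0655 against 5.61 ± 0.296 at 8 h and 2.39 ± 0.0645 against 4.71 ± 0.154 at 48 h. These sums cover only the 2 inhibitors named and concern mRNA, not protein. PLAU over PLAUR TPM was 2.74 ± 0.182 at 0 h in untreated cells and 7.36 ± 0.407, 8.99 ± 0.792 and 8.08 ± 0.287 in treated cells at 8, 24 and 48 h, against 3.14 ± 0.0806, 1.63 ± 0.0470 and 2.12 ± 0.142 in untreated cells.

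Across the 8 group means of log2(TPM + 0.1), the activators, the receptor and SERPINE2 were positively correlated with each other, with Pearson's r from 0.42 (PLAUR and PLAT) to 0.88 (SERPINE2 and PLAU), while SERPINB2 had negative values with each, from -0.17 to -0.43. These are descriptions over groups that share libraries and time points. Among 11660 genes the patterns most like PLAU were those of SLC35F2 (r = 0.997), NDST1 (r = 0.995) and C2CD2 (r = 0.986), which also showed the untreated dip at 24 h; NDST1, a heparan sulfate sulfotransferase, had 22.0 ± 1.28 TPM in untreated and 52.3 ± 5.93 TPM in treated cells at that time. Most like SERPINE2 were ARHGEF28 (r = 0.970), MSANTD3-TMEFF1 (r = 0.968) and SYTL2 (r = 0.966), most like PLAT were STK17B (r = 0.988), SYT1 (r = 0.962) and ANXA5 (r = 0.955), and most like PLAUR were ZNRD2 (r = 0.981), CDR2 (r = 0.963) and HK1 (r = 0.963). Over the 24 single libraries the order differed for some: the genes given for PLAUR ranked 52, 153 and 116 (r = 0.843, 0.782 and 0.804) and those for PLAT 33, 4 and 34, whereas those for PLAU ranked 1, 2 and 3. The pattern of SERPINB2 was closest to HSPA6 (r = 0.998), TNFRSF11A (r = 0.995) and GCNT3 (r = 0.993). HSPA6, a heat shock protein gene, had 14.4 ± 2.98 TPM in untreated cells at the start and 1.38 ± 0.197 TPM after 8 h. Over the same time in untreated cells TNFRSF11A went from 5.88 ± 0.493 to 2.21 ± 0.303 TPM. GCNT3 went from 8.62 ± 0.450 to 3.47 ± 0.412 TPM. A shared cause of these falls was not tested. After 48 h HSPA6 stood at 0.591 ± 0.128 TPM in untreated and 0.295 ± 0.0261 TPM in treated cells.

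Of 30 further genes of the plasminogen system, listed by role, 26 could be tested, and KLKB1, CPB2, LRP2 and VTN had too few counts. In the F-test 12 were higher and 6 lower in treated cells, against 21% and 21.5% of all tested genes, with a median log2 difference of 0.135. At 8 h 6 were higher and 2 lower, against 9.12% and 7.26% of all genes. At 24 h the counts were 10 and 5, against 15.4% and 13.8%, and at 48 h they were 12 and 4, against 16.1% and 16.4%. The total of 8 at 8 h was 5 without replicate 1 of either arm at that time, and ranged from 5 to 15 over the alternatives.

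Of 6 tested genes, PLG and enzymes that act on plasminogen or pro-urokinase, 3 were higher in treated cells and none lower. As a mean over 8, 24 and 48 h, ST14, the membrane protease matriptase, was higher by 0.65 (SE 0.08, limma voom F-test adjusted p = 3.8e-06). CTSB (cathepsin B) was higher by 0.33 and CTSL (cathepsin L) by 0.25 as means over the same times. PLG itself, the substrate, was barely detected, at 0.102 to 0.787 TPM. Among 6 other inhibitors 3 were higher and 2 lower. A2M, the broad protease trap alpha-2-macroglobulin, had a mean difference of -1.503 (SE 0.04, adjusted p = 3.1e-18). Untreated cells had 6.84 ± 0.307 TPM of A2M at the start and 184.7 ± 4.09 TPM after 48 h, when treated cells had 31.1 ± 1.44 TPM. SERPINI1 (neuroserpin, an inhibitor of PLAT), named after its value was seen, was lower by 0.76, and SERPINA5 (protein C inhibitor) was higher by 0.84 at levels of at most 2.09 TPM. SERPINF2, the plasmin inhibitor alpha-2-antiplasmin, passed the F-test with a mean difference of 0.86 (SE 0.83, adjusted p = 0.0022). It is counted as higher by the sign of this mean, whose 95% interval was -0.86 to 2.59. Its 8 h difference was -2.19 (95% interval -5.38 to 0.99) and was not called. At 48 h treated libraries had 0.972 ± 0.138 TPM and untreated ones 0.093 ± 0.14 TPM.

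Of 6 cell surface plasminogen receptors, S100A10 (higher by 0.49) and HMGB1 (higher by 0.27) passed the F-test upwards, and ENO1 (lower by 0.29) and ANXA2 downwards, as means over the 3 time points. The partner of S100A10, ANXA2, differed by -0.07 and was among the most abundant of these genes, at 2349 to 4139 TPM. Of 8 tested uptake receptors and partners 4 were higher and 2 lower. VLDLR, which clears activator-inhibitor complexes, was higher by 1.15 (SE 0.03, adjusted p = 3.1e-18), MRC2 (uPAR-associated protein) by 0.77 and ITGB1 (integrin beta 1) by 0.60. Untreated cells had 21.3 ± 0.423 TPM of VLDLR at the start and 8.46 ± 0.613 TPM after 48 h, when treated cells had 23.5 ± 0.722 TPM.

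**Figure D5:**
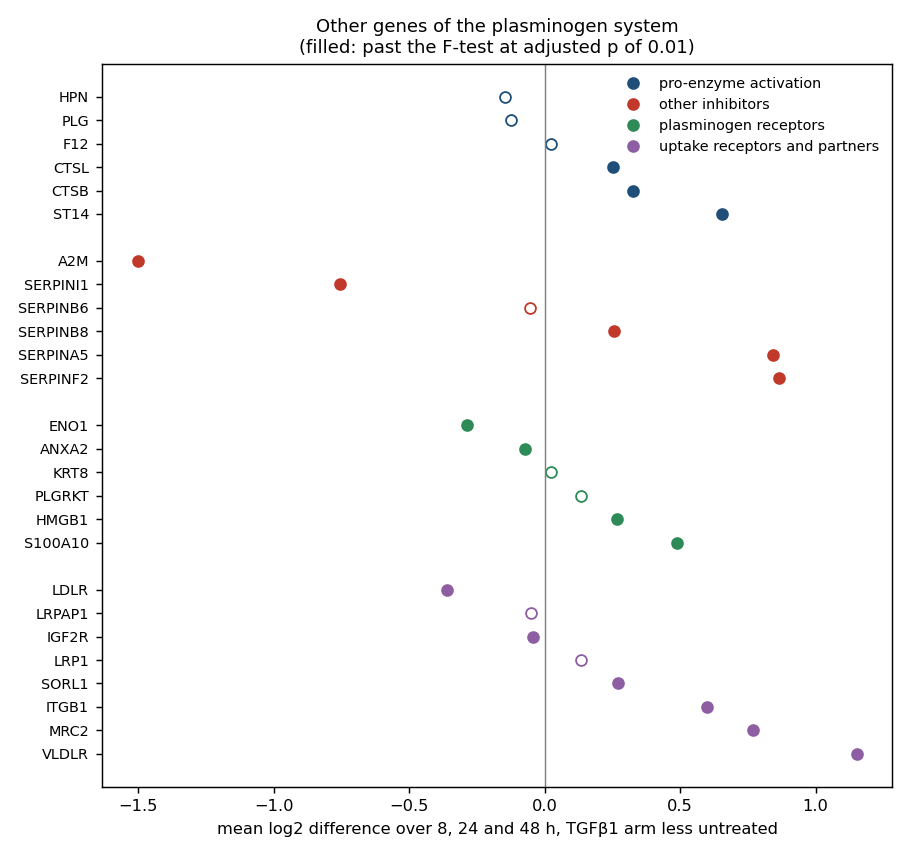
Mean log2 difference over 8, 24 and 48 h (TGFβ1 arm less untreated, x axis) of the 26 tested further genes of the plasminogen system, coloured by role; filled points passed the F-test at an adjusted p of 0.01. VLDLR (1.15) lies farthest to the right and A2M (-1.503) farthest to the left.

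SERPINB2 lies on chromosome 18 in a cluster of related clade B serpin genes, and its tested neighbours moved in both directions. Of 9 neighbours 5 could be tested. SERPINB5 (maspin) was higher by 0.65 (SE 0.04, limma voom F-test adjusted p = 9.4e-11), SERPINB7 by 1.96 (SE 0.19, adjusted p = 2.2e-07) and SERPINB8 by 0.26 (SE 0.04, adjusted p = 0.00031). SERPINB3 was lower by 2.27 (adjusted p = 0.0029) and SERPINB4 had a value of -1.47 that was not called (adjusted p = 0.011), both at 0.236 TPM or less, and as near-identical copies they may share reads. Untreated cells had 2.43 ± 0.549 TPM of SERPINB7 at the start and 0.219 ± 0.0269 TPM after 48 h, when treated cells had 1.304 ± 0.284 TPM. SERPINB5 lay at 11.1 to 28.7 TPM and SERPINB8 at 9.12 to 22.2 TPM over all libraries. SERPINB10, SERPINB11, SERPINB12 and SERPINB13 were at 0.29 TPM or less.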

How the data were processed

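RNA-Seq of 24 SK-MES-1 libraries (Illumina HiSeq) was compared between arms at 4 time points. The authors quantified reads with kallisto 0.43.0 against Ensembl release 79 transcripts (GRCh38) and deposited, per library and transcript, an expected count (not normalized, not whole), a TPM value and an effective length. Replicates were not pooled.

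Transcripts were assigned to genes with GENCODE release 44, which left 17741 of 173259 transcripts out. Expected counts were summed per gene and rounded, and the 17453 genes that reached 10 counts in 3 or more libraries entered limma 3.58.1 (voom, TMM, R 4.3.3), fitted with a mean for each of the 8 groups. Calls used a Benjamini-Hochberg adjusted p of 0.01 over all tested genes. The TPM deposited by the authors was summed per gene for levels, and the exact permutation test used log2(TPM + 0.1). The effective length served only for length-scaled counts. Similar genes were the 3 with the highest correlation over group means among tested genes of at least 5 TPM in some group. Transcripts are named from a share of 10%.

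Alternatives were edgeR 4.0.16, DESeq2 1.42.0, upper-quartile factors, library totals or the qRT-PCR reference genes for scaling, limma-trend on TPM with a pseudocount of 1 or 0.1, counts scaled by length, other count filters, unmatched transcripts, replicate blocks, fewer time points and each library left out. The tests were tried on simulated data. Python 3.11.15, pandas 2.3.3 and matplotlib 3.10.9 made tables and plots.

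The genes, lists and tests were chosen with earlier results of these data known. The labels letter the libraries of a group a, b and c, and the study describes them as biological replicates. The p-values measure the spread between these libraries, and the labels used here do not say what separates them. The members are named in full. Of the further genes, those named are up to 3 per role with the largest mean difference among those past the F-test. Genes at or near 0 are named as well. SERPINI1, ANXA2, NDST1, HSPA6, TNFRSF11A and GCNT3 were given values after these were seen. Some genes are not reported here. The kit's strandedness is not given in the sources used here.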

Additional observations from a re-analysis of the deposited data

Results flagged for a closer look

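The arm difference of 3 genes changed between time points by a test of the change itself (limma voom adjusted p). For PLAU it rose by 1.09 from 8 h to 24 h (adjusted p = 2.7e-09), fell by 0.65 from 24 h to 48 h (adjusted p = 2.5e-06) and was 0.43 larger at 48 h than at 8 h (adjusted p = 0.00013). For SERPINE2 it rose by 0.90 from 8 h to 24 h (adjusted p = 2.7e-08) and was 0.98 larger at 48 h than at 8 h (adjusted p = 2e-09). For PLAT it was 0.36 larger at 48 h than at 8 h (adjusted p = 0.009), a call lost in 17 of the 24 fits with a library left out. Changes of either sign were called for 6.69% of all tested genes from 8 h to 24 h, 9.11% from 24 h to 48 h and 14% from 8 h to 48 h. Changes from 8 h to later times span the change of library codes, whose part was not tested; the change of PLAU from 24 h to 48 h lies within 1 pair of codes.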

How the results depend on the processing

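Over 39 alternatives, 1048 values of arm differences and counts were scored as kept, 11 lost their call and 5 counts moved. A difference was scored as kept if its direction and side of the threshold held. A count was scored as kept if it stayed within a set ratio of its main value, so smaller shifts are among the 1048. Members called at 8 h and at 24 h ranged from 4 to 5, and other plasminogen genes called in the F-test from 16 to 22. Of the other results, 2374 kept their direction and side of the threshold, 43 gained a call, 37 lost one and 21 changed sign. Those from alternatives other than a left-out library are given one by one. Unless a value or the construction shows it, the cause was not tested. Differences are log2 and a p is adjusted.

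For SERPINB2, the arm difference at 24 h lost its call with length-scaled counts (-0.52), reference genes (-0.19), no filter (-0.54), unmatched transcripts kept (-0.54) and only the time points compared (-0.53). Its 24 h difference less that at 0 h gained one with edgeR (-0.58), DESeq2 (-0.59), log2(TPM + 1) (-0.44), log2(TPM + 0.1) (-0.56), library totals (-0.64), upper-quartile factors (-0.62) and at least 50 counts (-0.59). Its 8 h difference less that at 0 h lost its call with reference genes (-0.52) and only the time points compared (-0.63). Its change from 24 h to 48 h gained a call with edgeR (-0.78), DESeq2 (-0.79) and log2(TPM + 0.1) (-0.67), and that from 8 h to 48 h with edgeR (-0.74), DESeq2 (-0.74), log2(TPM + 0.1) (-0.60) and only the time points compared (-0.77).

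For SERPINE2, the 8 h difference lost its call on log2(TPM + 1) and log2(TPM + 0.1) (0.23 each), and the untreated 8 h change on the same scales (-0.14 each) and with length-scaled counts (-0.17). Its treated 8 h change turned to 0.0067 with reference genes. PLAU in untreated cells gained a call at 48 h with DESeq2 (-0.15), and turned sign with reference genes at 48 h (0.039) and with library totals at 8 h (1.6e-05).

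For PLAUR, the 0 h difference turned to -0.0018 on both TPM scales, and the 48 h difference less that at 0 h lost its call with library totals (0.33), upper-quartile factors (0.35) and only the time points compared (0.39). With reference genes its change from 8 h to 24 h turned to 0.16, and the untreated 8 h (-0.30) and treated 24 h (0.29) changes gained calls. DESeq2 called the untreated 8 h change (-0.24), and the time points alone the change from 8 h to 48 h (-0.32). For PLAT, the treated 8 h change turned positive on log2(TPM + 1) (0.076), log2(TPM + 0.1) (0.078), length-scaled counts (0.065), reference genes (0.023) and no filter (0.0062). Its change from 8 h to 48 h lost its call without a filter (0.36) and with unmatched transcripts (0.34), its change from 8 h to 24 h gained one with reference genes (0.53), and its untreated 24 h change with DESeq2 (-0.20) and reference genes (-0.39). Of the other plasminogen genes, 5 were called at 8 h on log2(TPM + 0.1), and 15 at 8 h and 9 at 24 h with only the time points compared.

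Replicate numbers were not taken to pair the samples, since only 4 of 12 same-numbered pairs correlated above 0.1 (-0.047 to 0.30). These 4 were at 0 h and 24 h, where 5 of 6 and 4 of 6 libraries correlated best with their own number, against 0 of 6 at 8 h and 2 of 6 at 48 h. The replicate block called 3198, 5657 and 6226 genes at 8, 24 and 48 h against 2859, 5112 and 5686 without it, and the replicate block set inside time points 4530, 7166 and 7733. Under the replicate block SERPINB2 gained calls for 24 h less 0 h (-0.57) and 48 h less 8 h (-0.75), PLAUR for untreated 8 h (-0.22) and PLAT for untreated 24 h (-0.19). Under the replicate block within time points, calls were gained for SERPINE2 8 h less 0 h (0.22, adjusted p = 0.0021 in limma voom, against 0.052 without the block), SERPINB2 24 h less 0 h (-0.58), 48 h less 24 h (-0.77) and 48 h less 8 h (-0.73), PLAU untreated 48 h (-0.23), PLAUR 48 h less 8 h (-0.30) and untreated 8 h (-0.30), and PLAT 24 h less 8 h (0.27).

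With a library left out, 31 calls were lost: 17 for PLAT 48 h less 8 h, 8 for PLAUR 48 h less 0 h, 4 for SERPINB2 at 24 h and 2 for untreated PLAUR at 48 h. Calls were gained 9 times, for SERPINB2 24 h less 0 h (without replicate 2 or 3 of untreated 0 h, or replicate 3 of TGFβ 0 h), SERPINB2 48 h less 24 h and 48 h less 8 h (without replicate 3 of untreated 0 h), untreated PLAU at 48 h (without replicate 2 of untreated 24 h), untreated PLAUR at 8 h (without replicate 1 of TGFβ 0 h), and PLAT 24 h less 8 h and untreated PLAT at 24 h (without replicate 2 of TGFβ 24 h). The ranges were, for SERPINB2, -0.59 to -0.47 (24 h), -0.65 to -0.49 (24 h less 0 h), -0.0016 to 0.12 (24 h less 8 h), -0.88 to -0.66 (48 h less 24 h), -0.84 to -0.61 (48 h less 8 h) and -0.048 to 0.12 (0 h). For PLAT they were 0.33 to 0.38 (48 h less 8 h), 0.21 to 0.35 (24 h less 8 h), -0.058 to 0.045 (treated 8 h) and -0.22 to -0.14 (untreated 24 h). For PLAUR they were 0.31 to 0.47 (48 h less 0 h), -0.053 to 0.10 (0 h), 0.23 to 0.30 (untreated 48 h) and -0.27 to -0.19 (untreated 8 h). They were -0.17 to -0.13 for untreated PLAU at 48 h, -0.052 to 0.025 for treated SERPINE2 at 8 h, and 5 to 10 other plasminogen genes at 8 h, the 5 arising without replicate 1 of either arm at 8 h. Scaling to the reference genes moved the median of all genes to 0.0757, 0.335 and 0.336 at 8, 24 and 48 h, and library totals to -0.0996, -0.11 and -0.096, against -0.0162, -0.0153 and -0.0134.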

Other observations

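Some genes used for scaling in the study's qRT-PCR differed between the arms. As means over 8, 24 and 48 h, HPRT1 was lower in treated cells by 0.35 (limma voom F-test adjusted p = 2.9e-05) and GAPDH by 0.28 (adjusted p = 5.3e-06), while GUSB had a value of -0.12 (adjusted p = 0.015).

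Among the squamous markers KRT17 was higher in treated cells by 4.27 (adjusted p = 5.8e-18) and SOX2 was lower by 2.62 (adjusted p = 8.2e-16), as means over the same time points. TP63 was higher by 0.80 at 8 h (limma voom adjusted p = 5.2e-09) and by 1.02 at 24 h (adjusted p = 6.4e-11), and had a value of -0.49 at 48 h (adjusted p = 2.6e-06). KRT17 ranged from 0.29 to 71.4 TPM over the libraries.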
